A study of Mus musculus with 50 samples.

Results

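The TFII-I family of transcription factors was followed across the brains of mouse embryos from crosses labelled for mutations of Gtf2i or of Gtf2ird1. Its members are Gtf2i (ENSMUSG00000060261), Gtf2ird1 (ENSMUSG00000023079) and Gtf2ird2 (ENSMUSG00000015942). They were taken by symbol from a table of read counts, where each had 1 row, so 3 of 11708 genes are described. RNA came from whole brains at E13.5 (strain FVB/ANTJ), as total RNA depleted of ribosomal RNA, in 18 libraries and 6 groups of 3. In the gtf2i cross, the genotype label was wt, gtf2i or gtf2i/gtf2i. In the ird1 cross it was wt, ird1 or ird1/ird1. A name given once was read as 1 mutant allele and a name on both sides of the slash as 2, and these groups are called heterozygotes and homozygotes. Each cross had its own wt embryos, and no library is shared between the crosses. The labels give no sex and do not describe the lesion of either allele, including whether the gtf2i allele also alters Gtf2ird1. Counts per gene cannot separate normal transcripts from those of a mutant allele. The labels do not say that the 3 libraries of a group are separate litters, so p-values measure the spread between these libraries. The 32 chromatin samples of the series were not analysed here.

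Proteins of this family share the I-repeat, a helix-loop-helix-like domain, and act as activators or repressors according to the gene they bind. TFII-I, made from Gtf2i, binds initiator and E-box elements, takes part in signalling responses, and also has roles in the cytoplasm. GTF2IRD1 binds DNA through its repeat domains and is known to bind upstream of its own gene and repress it. GTF2IRD2 carries a transposase-derived domain and is the least studied. The genes GTF2I and GTF2IRD1 lie in the region whose deletion causes Williams syndrome in people, and are studied for its cognitive and craniofacial features.

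In the mouse reference GRCm38.p6 (the same assembly as mm10) the genes are neighbours on chromosome 5. Gtf2ird2 runs from 134182557 to 134218146 on the forward strand. Gtf2i runs from 134237832 to 134317678 on the reverse strand, with Ncf1 between it and Gtf2ird2. Gtf2ird1 runs from 134357661 to 134456867, also on the reverse strand, and 39982 bases part it from Gtf2i. Clip2 begins 32515 bases beyond Gtf2ird1. The 250 bases before a RefSeq start of each gene are printed 5′ to 3′ on the gene's strand, because GTF2IRD1 acts on its own upstream region. Capitals mark GGATTA, a core bound by GTF2IRD1 repeat domains (TAATCC where it lies on the opposite strand), and the E-box CACGTG. Each of these starts lies inside the outermost limits of its gene, so some bases may be transcribed in other transcripts. The windows are chr5:134456717-134456966 (reverse strand), chr5:134314761-134315010 (reverse strand) and chr5:134183788-134184037 (forward strand).
Gtf2ird1: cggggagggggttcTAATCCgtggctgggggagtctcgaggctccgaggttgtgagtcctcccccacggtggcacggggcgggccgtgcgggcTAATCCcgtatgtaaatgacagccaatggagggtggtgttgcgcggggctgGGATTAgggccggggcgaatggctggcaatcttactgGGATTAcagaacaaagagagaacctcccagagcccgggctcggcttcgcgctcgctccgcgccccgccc
Gtf2i: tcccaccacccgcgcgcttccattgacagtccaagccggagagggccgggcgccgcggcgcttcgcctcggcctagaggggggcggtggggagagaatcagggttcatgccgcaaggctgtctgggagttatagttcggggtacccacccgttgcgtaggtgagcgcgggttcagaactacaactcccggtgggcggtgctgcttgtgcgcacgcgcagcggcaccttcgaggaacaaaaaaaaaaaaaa
Gtf2ird2: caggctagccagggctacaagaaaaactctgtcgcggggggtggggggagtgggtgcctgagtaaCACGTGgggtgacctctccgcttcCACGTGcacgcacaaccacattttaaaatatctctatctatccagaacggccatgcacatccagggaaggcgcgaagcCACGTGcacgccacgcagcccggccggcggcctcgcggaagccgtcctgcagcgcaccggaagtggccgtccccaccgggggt

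The Gtf2ird1 window holds 4 GGATTA matches. Those on the opposite strand begin 236 and 157 bases before the start, and those on the gene's own strand begin 106 and 69 bases before it. Both strands were searched for the GGATTA core, for its shorter form GATTA, which lies inside it, and for the E-box over 300 bases, from 250 before to 50 after a start. Among 11763 RefSeq promoters of 9097 genes in the count table, 621 (5.28%) held at least 1 GGATTA and 24 (0.204%) at least 2. The Gtf2ird1 promoter was the 1 promoter (0.0085%) with 3 or more. Over all 32851 promoters in RefSeq's set, 7.06% held at least 1 GGATTA and 2 promoters held 4 or more. For the shorter GATTA, 14.5% of the promoters of genes in the table held at least 1 match and 5 (0.0425%) at least 4. The Gtf2ird2 window holds 3 CACGTG, beginning 185, 161 and 83 bases before the start, and no GGATTA. At least 3 CACGTG occurred in 17 promoters (0.145%) of genes in the table, and at least 1 in 9.86%. None of the 3 motifs was found in the Gtf2i window. These are matches of letters, and binding was not measured here.

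Library totals ranged from 3239117 counts (ird1 cross, wt replicate 2) to 7371483. Levels are read counts scaled to a common library size, as CPM, after trimmed-mean (TMM) scaling, and replicate libraries differed by more than sampling noise. Means carry the SD over libraries (n = 3). Fold changes, their SEs and adjusted p-values come from edgeR's quasi-likelihood test fitted to the 9 libraries of a cross, with Benjamini-Hochberg adjustment over all genes. A gene is called at an adjusted p under 0.05. Neuronal marker transcripts were present throughout, at a summed 4270 to 5486 CPM over 8 genes. By edgeR 0 of them were called in either homozygote contrast with wt. At an unadjusted p under 0.05, 2 were lower in gtf2i/gtf2i (14.4% of all genes) and 3 were higher in ird1/ird1 (16.1% of all genes). Transcripts of 8 red blood cell genes summed to 5790 to 9184 CPM in gtf2i/gtf2i, above the 4091 to 5314 CPM in wt of that cross. Of these 8, Hbb-y and Slc4a1 were called higher against wt, beside 0.41% of all genes, and 5 were called higher against gtf2i, a contrast where 3.12% of all genes were called. The ird1 cross ranges of that sum overlapped (3182 to 5042 in wt, 3326 to 5561 in ird1/ird1). Of 7 mesenchyme genes, 0 were called in gtf2i/gtf2i against wt by edgeR, with 3 higher and 1 lower at an unadjusted p under 0.05 (14.4% of all genes), and 1 (Lum) was called higher against gtf2i (3.12% of all genes called). Their sum was 1014 to 1660 CPM in gtf2i/gtf2i and 911 to 1093 CPM in wt. The part of neuron, blood or mesenchyme content in the results below was not tested.

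In wt brain, Gtf2i was the most abundant member, Gtf2ird1 intermediate and Gtf2ird2 the lowest. Per kilobase of the transcript length in the table, Gtf2i was at 139 ± 5.63 CPM, Gtf2ird1 at 25.8 ± 2.77 CPM and Gtf2ird2 at 9.61 ± 0.559 CPM (SD over the 6 wt libraries of both crosses). This order held in every wt library. Ranked per length within a library, Gtf2i lay at the 97.0 to 97.8 percentile of all genes in wt, Gtf2ird1 at 72.9 to 79.0 and Gtf2ird2 between 39.3 and 49.1 over all 18 libraries. The wt groups of the crosses showed no detectable difference for any member. The log2 differences, ird1 cross minus gtf2i cross, were -0.02 for Gtf2i, 0.08 for Gtf2ird1 and 0.02 for Gtf2ird2 (edgeR adjusted p 0.825, 0.578 and 0.906). By edgeR 0% of genes were called between these groups, while 3827 (32.7%) had an unadjusted p under 0.05. The libraries of each member overlapped between these groups, while those of 32% of genes did not.

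**Figure D1:**
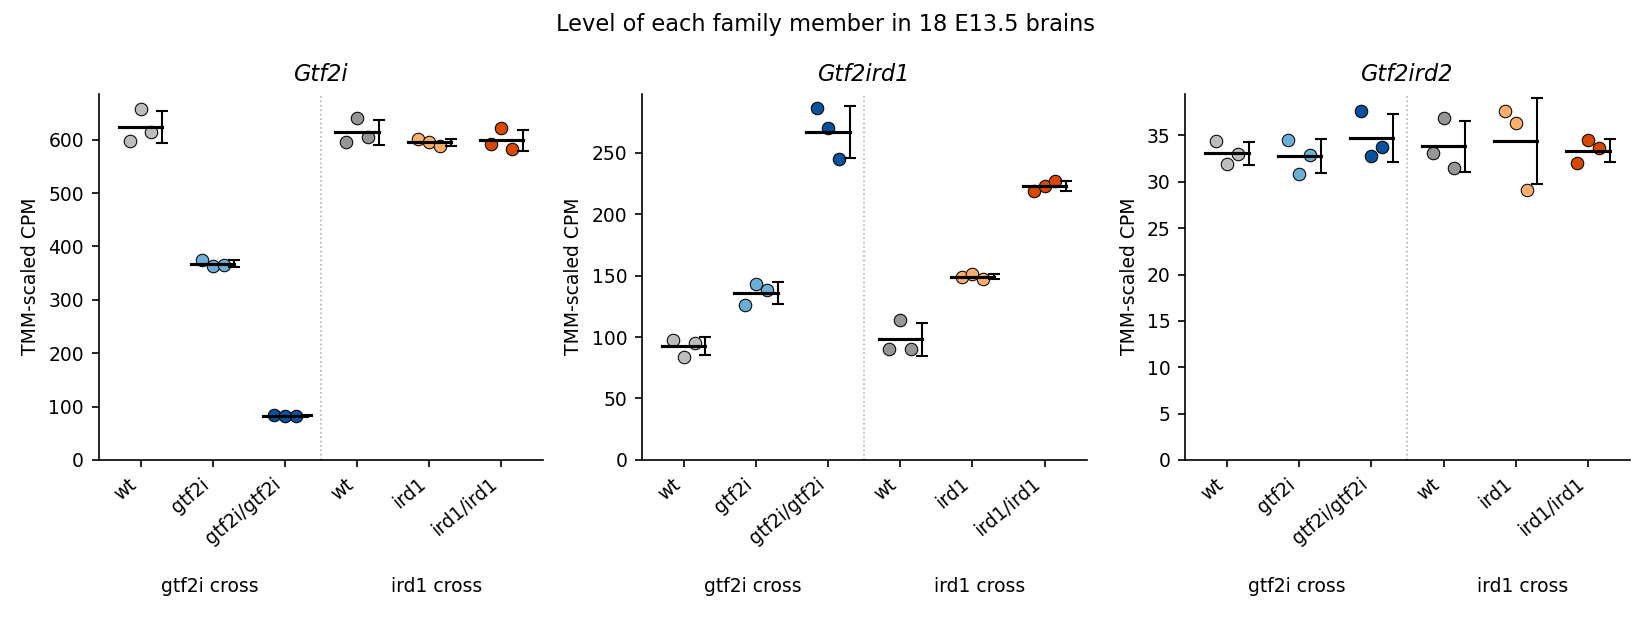
Level of each family member in each of the 18 libraries (CPM, TMM-scaled), by genotype and cross; points are libraries, lines are group means and error bars are SD (n = 3). Gtf2i steps down in the gtf2i cross alone, from 624 to 368 and 82.5 CPM, Gtf2ird1 steps up in both crosses, and Gtf2ird2 stays between 29.1 and 37.7 CPM.

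Gtf2i, the gene named in the gtf2i cross labels, fell with each mutant allele of that cross. Its level was 598, 658 and 615 CPM in the wt libraries (replicates 1, 2 and 3). The heterozygotes were at 375, 363 and 365 CPM and the homozygotes at 83.3, 82.2 and 81.8 CPM. The 3 genotypes did not overlap, and the homozygotes had an SD of 0.797 CPM. In gtf2i/gtf2i the level was 13.2% of wt (95% interval 11.7% to 14.8%), or -2.93 on the log2 scale (edgeR adjusted p 2.79e-11, SE 0.0781). It was the gene with the smallest p in this contrast, where 2 of the 3 members and 0.94% of all genes were called. Libraries of these groups did not overlap for 16.8% of genes. In gtf2i it was 58.9% of wt (52.9% to 65.5%), or -0.76 on the log2 scale (edgeR adjusted p 0.000501, SE 0.0713). Gtf2i was the 1 gene called there, which is 0.00854% of those tested, against 7.27% whose libraries did not overlap. Between gtf2i/gtf2i and gtf2i the log2 difference was -2.16 (edgeR adjusted p 1.36e-09, SE 0.0766), where 3.12% of genes were called and 19.2% did not overlap. Reads on Gtf2i remained in the homozygotes, at 485, 356 and 536 raw counts. Per length this level lay at the 65.8 to 66.5 percentile of all genes.

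No difference in Gtf2i was detected in the ird1 cross. Its level was 597, 641 and 604 CPM in wt, 602, 596 and 589 CPM in ird1, and 592, 622 and 583 CPM in ird1/ird1, with overlap between all genotypes. The ird1/ird1 to wt log2 difference was -0.05 (95% interval -0.23 to 0.13, edgeR adjusted p 0.766). For ird1 against wt it was -0.04 (-0.22 to 0.14, edgeR adjusted p 0.997). These intervals leave room for a small change in either direction. Placed in order, the group means were 624 and 614 CPM in the wt groups, 599 CPM in ird1/ird1, 595 CPM in ird1, 368 CPM with 1 gtf2i allele and 82.5 CPM with 2. The first 4 of these overlapped and the last 2 stood apart from every other group. Between the wt groups of the crosses, libraries did not overlap for 32% of genes.

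Gtf2ird1 rose in the homozygotes of both crosses. In the gtf2i cross it was at 97.9, 84.1 and 95.1 CPM in wt, 126, 143 and 138 CPM in the heterozygotes, and 286, 270.0 and 245 CPM in the homozygotes. Neighbouring genotypes did not overlap, and 0.162% of all genes stepped up in this way. The gtf2i/gtf2i level was 2.87-fold that of wt (95% interval 2.51 to 3.29), or 1.52 on the log2 scale (edgeR adjusted p 5.61e-07, SE 0.0915), the third smallest p of all genes. Raw counts were 587, 445 and 701 in wt and 1667, 1169 and 1604 in the homozygotes. Against gtf2i the homozygotes were higher by 0.97 on the log2 scale (edgeR adjusted p 7.08e-05, SE 0.0895). In gtf2i against wt the log2 fold change was 0.55 (95% interval 0.35 to 0.75), with all 3 heterozygotes above all 3 wt libraries. Libraries of these groups did not overlap for 7.27% of all genes. That contrast had the second smallest p of all genes but did not pass after adjustment (unadjusted p 3.23e-05, edgeR adjusted p 0.15). It passed with DESeq2 (adjusted p 0.000855).

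In the ird1 cross, where Gtf2ird1 is the gene named in the labels, its RNA was also higher with the mutant alleles. It was at 90.5, 114 and 90.4 CPM in wt, 149, 151 and 147 CPM in ird1, and 219, 223 and 227 CPM in ird1/ird1. The 3 genotypes did not overlap, although wt replicate 2, at the lowest total of all 18 libraries, was above the other wt libraries. The ird1/ird1 level was 2.27-fold that of wt (95% interval 1.96 to 2.62), or 1.18 on the log2 scale (edgeR adjusted p 3.92e-05, SE 0.0974). No other gene than Gtf2ird1 was called in that contrast (1 gene, 0.00854% of all), where the libraries of 26.9% of genes did not overlap. Leaving out wt replicate 2 gave 1.29, the highest of the leave-one-out values, and the gene was called in all 6 such fits. No library labelled ird1 or ird1/ird1 had a lower CPM of Gtf2ird1 than a wt library, so a lower level of this gene cannot serve as a check of those labels. The counts do not show which part of the gene the reads cover, and the protein was not measured in these files.

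The single steps of the ird1 cross did not pass over all genes. Gtf2ird1 was higher by 0.61 on the log2 scale in ird1 against wt (95% interval 0.41 to 0.82, unadjusted p 1.37e-05, edgeR adjusted p 0.16). From ird1 to ird1/ird1 the step was 0.57 (95% interval 0.37 to 0.77, unadjusted p 2.07e-05, edgeR adjusted p 0.242). Gtf2ird1 had the smallest p of all genes in both. By edgeR, 0 genes were called in either (0%), with 353 (3.02%) and 546 (4.66%) at an unadjusted p under 0.05. DESeq2 called Gtf2ird1 in each, with adjusted p of 0.000218 and 0.000352. Libraries did not overlap for 7.04% and 17% of genes in these contrasts. Without wt replicate 2, ird1 against wt was called, at 0.72 (edgeR adjusted p 0.000364). This was the 1 call among 6 fits that left out 1 library, with edgeR adjusted p up to 0.978.

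**Figure D2:**
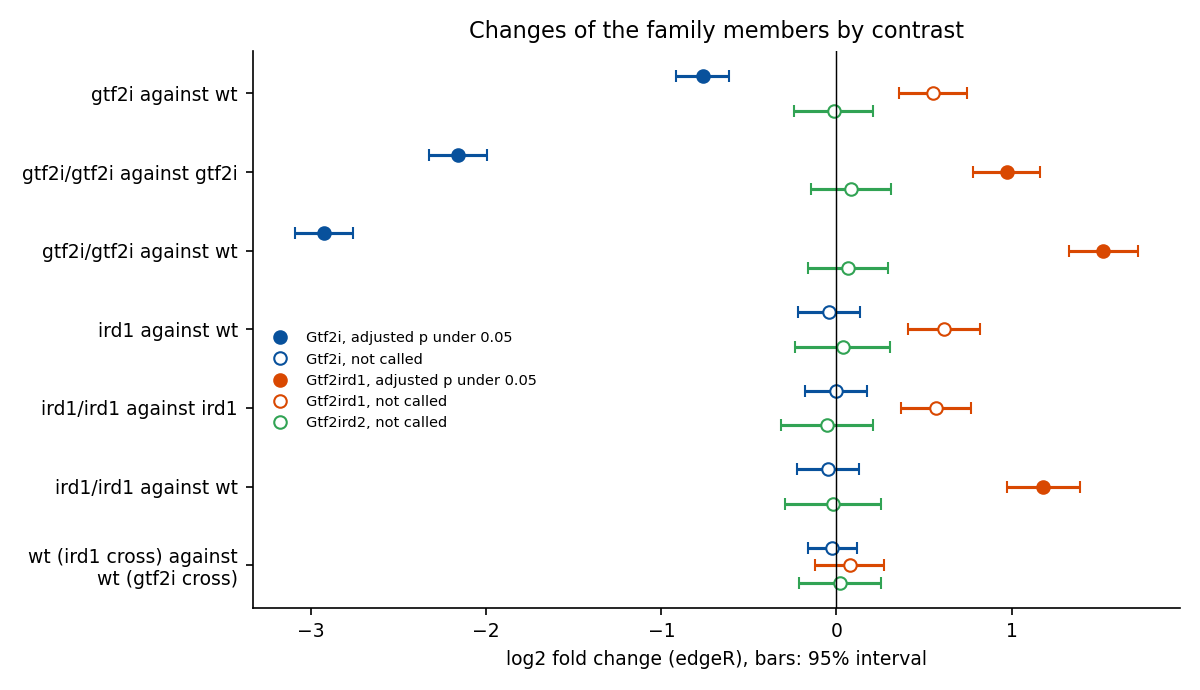
Log2 fold change of each member in the 6 contrasts between genotypes and between the wt groups, with 95% intervals from edgeR (n = 3 libraries per group); filled points have an adjusted p under 0.05. Gtf2i lies far below 0 in the gtf2i cross, Gtf2ird1 lies above 0 in all 6 genotype contrasts, and the intervals of Gtf2ird2 span 0 throughout.

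Gtf2ird2 showed no detectable change in either cross. In the gtf2i cross it was at 34.4, 31.9 and 33.0 CPM in wt, 34.5, 30.8 and 32.9 CPM in the heterozygotes, and 37.6, 32.8 and 33.7 CPM in the homozygotes. In the ird1 cross it was at 33.1, 36.9 and 31.5 CPM in wt, 37.7, 36.4 and 29.1 CPM in ird1, and 32.0, 34.5 and 33.6 CPM in ird1/ird1. Groups overlapped in every contrast, and the 18 libraries had a mean of 33.7 ± 2.34 CPM (SD). The log2 difference from wt was 0.06 in gtf2i/gtf2i (95% interval -0.16 to 0.29, edgeR adjusted p 0.859) and -0.02 in ird1/ird1 (-0.29 to 0.25, edgeR adjusted p 0.942). These limits leave out changes of the size seen in Gtf2ird1, but not small ones. The members are related in sequence, and how reads matching more than 1 of them were counted is not given in the sources used here.

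Taking the 3 genotypes of a cross together, the change per mutant allele was estimated as a linear term on the log2 scale. Gtf2ird1 rose by 0.76 per allele in the gtf2i cross (SE 0.0534, edgeR adjusted p 6.55e-06) and by 0.59 in the ird1 cross (SE 0.0460, edgeR adjusted p 5.30e-06). By p-value it ranked first of all genes in each, where 0.0769% and 0.00854% of genes were called. Gtf2i fell by 1.44 per allele in the gtf2i cross (SE 0.127, edgeR adjusted p 7.31e-05). A 2-sided exact permutation test of the slope over 1680 arrangements gave 0.00119, the smallest p possible, for these 3 slopes. For Gtf2ird2 the exact permutation p was 0.36 and 0.883, and for Gtf2i in the ird1 cross 0.336. Restricted to arrangements within the numbers in the sample titles, the exact permutation p of Gtf2ird1 was 0.00926 (gtf2i cross) and 0.0037 (ird1 cross), again the smallest possible.

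Genes were then counted whose 3 genotypes formed steps with no overlap between neighbours. In the gtf2i cross 19 genes (0.162%) stepped up and 12 (0.102%) down, and in the ird1 cross 16 (0.137%) stepped up and 28 (0.239%) down. Gtf2ird1 was the 1 gene that stepped up in both, and 0 genes stepped down in both. Gtf2i was among the 12 of the gtf2i cross.

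Heterozygotes were compared with the midpoint of wt and homozygotes. Gtf2i in gtf2i, at 368 CPM, lay 14.6 CPM (SE 9.56) above the linear midpoint of 353 CPM, and its steps of -256 and -285 CPM were similar. On the log2 scale it lay 0.70 above the midpoint (SE 0.0613, edgeR adjusted p 0.000117), in a contrast where 0.171% of genes were called. Gtf2ird1 differed from this in the gtf2i cross, where the first allele added 43.3 CPM and the second 131 CPM. All 3 heterozygotes, with a mean of 136 CPM, were below the linear midpoint of 180 CPM. On the log2 scale the departure was -0.21 (SE 0.0786, unadjusted p 0.0182, edgeR adjusted p 0.479), and was not called. In the ird1 cross the steps were 50.8 and 73.8 CPM. All 3 heterozygotes, with a mean of 149 CPM, were below the linear midpoint of 161 CPM there too, and the log2 departure was 0.02 (95% interval -0.15 to 0.20). No gene passed that contrast (0%), with 192 (1.64%) at an unadjusted p under 0.05.

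The crosses were compared by testing the difference between their effects, which needs all 18 libraries. For Gtf2i the homozygote effects differed by -2.88 on the log2 scale (gtf2i cross minus ird1 cross, SE 0.0989, edgeR adjusted p 3.89e-14), where 0.171% of genes were called. The heterozygote effects differed by -0.72 (SE 0.0954, edgeR adjusted p 0.00291), where 0.0171% of genes were called. For Gtf2ird1 the rise was larger in gtf2i/gtf2i than in ird1/ird1 by 0.34 (95% interval 0.07 to 0.61), a difference that did not pass over all genes (unadjusted p 0.0165, edgeR adjusted p 0.296). Its heterozygote effects differed by -0.06 (-0.33 to 0.21, edgeR adjusted p 1.00). In order of its level, Gtf2ird1 stood at 267 CPM in gtf2i/gtf2i, 223 in ird1/ird1, 149 in ird1, 136 in gtf2i, and 98.2 and 92.4 CPM in the wt groups of the ird1 and gtf2i crosses.

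**Figure D3:**
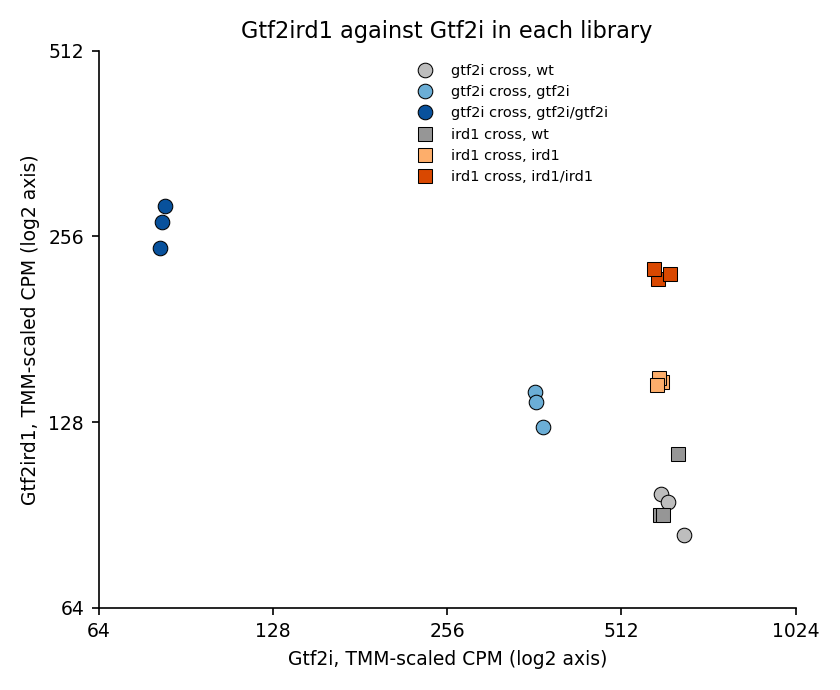
Gtf2ird1 against Gtf2i in each library (TMM-scaled CPM, log2 axes), coloured by genotype, with circles for the gtf2i cross and squares for the ird1 cross. Libraries of the ird1 cross rise in Gtf2ird1 at 583 to 641 CPM of Gtf2i, and those of the gtf2i cross move to lower Gtf2i and higher Gtf2ird1, ending at 81.8 to 83.3 CPM of Gtf2i in gtf2i/gtf2i.

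The make-up of the family's RNA differed between the crosses. Summed over the 3 genes per kilobase, it was 175 ± 4.58 CPM in wt, 129 ± 0.538 in gtf2i and 101 ± 6.38 in gtf2i/gtf2i (SD, n = 3). With ird1 alleles it was 174 ± 9.69 in wt, 184 ± 3.08 in ird1 and 204 ± 4.75 CPM in ird1/ird1. The Gtf2i share of that sum was 80.2%, 64.1% and 18.4% over the gtf2i cross genotypes. The Gtf2ird1 share was 14.4%, 28.5% and 71.7%. In gtf2i/gtf2i the order of levels per length was Gtf2ird1, Gtf2i and Gtf2ird2 in all 3 libraries. Among the ird1 cross groups Gtf2i remained the largest share, at 79.2%, 72.7% and 65.8%, while Gtf2ird1 was 15.2%, 21.9% and 29.5%.

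Within a library, the ratio of Gtf2ird1 to Gtf2i cancels library scaling. Per length it was 0.179 in wt, 0.446 in gtf2i and 3.91 in gtf2i/gtf2i, and 0.193, 0.302 and 0.449 in the ird1 cross genotypes. The homozygote ratio was 21.9-fold that of wt in the gtf2i cross and 2.34-fold in the ird1 cross. Groups did not overlap in any of the 6 contrasts of this ratio, and the exact permutation p was 0.1 in each, the smallest that 3 against 3 libraries allow.

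**Figure D4:**
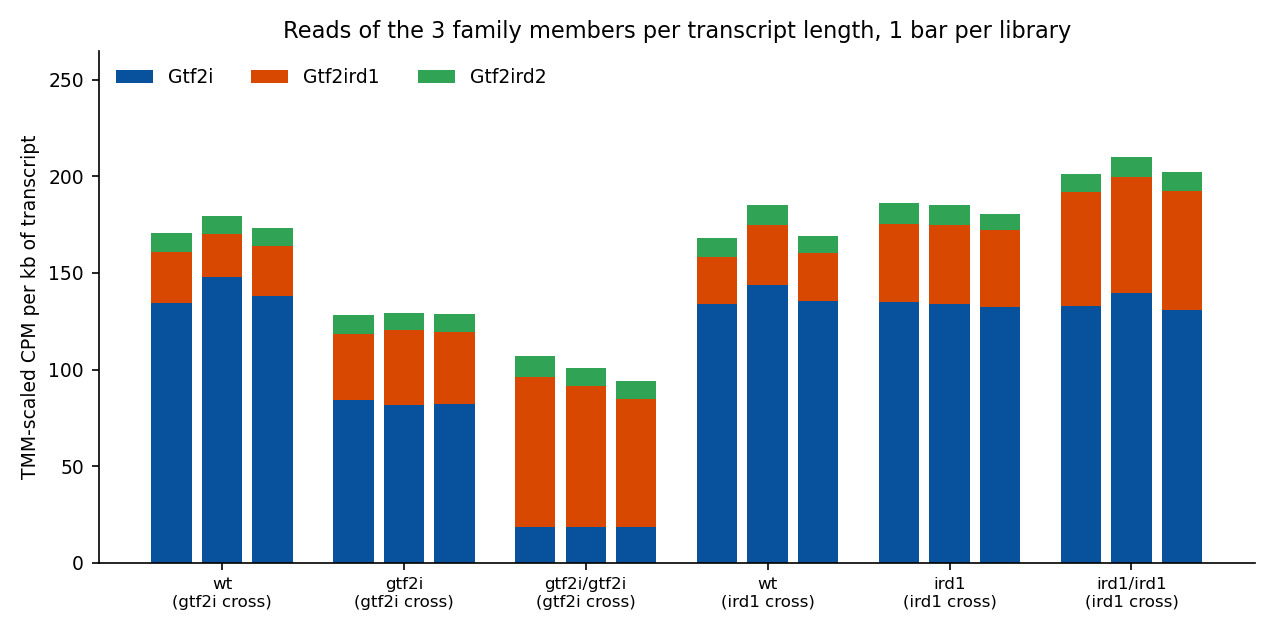
Summed level of the 3 family members per kilobase of transcript (CPM per kb), split by member, with 1 bar for each of the 18 libraries, grouped by genotype and cross. Gtf2i is the largest part in 5 groups, while Gtf2ird1 makes up a mean of 71.7% in gtf2i/gtf2i.

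Genes with the most similar pattern were found by Pearson's r of log2 CPM over the 18 libraries, given as a description because the libraries share genotypes and depth. For Gtf2i the highest were Bdh1 (0.912), Pcdhgb6 (0.903), Fam110b (0.900), Bzw2 (0.897) and Acat1 (0.897), and the lowest Pnpla6 (-0.946), Kif13a (-0.914) and Nxt2 (-0.907). Without the 3 gtf2i/gtf2i libraries, r was 0.64 for Pcdhgb6, 0.23 for Fam110b, 0.21 for Bzw2, -0.079 for Acat1 and -0.15 for Bdh1. It was -0.22 for Pnpla6, -0.40 for Kif13a and -0.42 for Nxt2. For Gtf2ird1 the highest were Thbs1 (0.773), Sft2d2 (0.755), Afap1l2 (0.751), Hip1 (0.75) and Eif4enif1 (0.747), and the lowest Zfp956 (-0.769), Brinp2 (-0.758) and Sh3rf3 (-0.756). For Gtf2ird2 they were Gm4673 (0.748), Rtkn (0.734), Rab34 (0.712), Psmd2 (0.71) and Spg7 (0.708), and the lowest included Hlf (-0.745) and Dcn (-0.740). Between members, r was -0.657 for Gtf2i and Gtf2ird1, -0.152 for Gtf2i and Gtf2ird2, and 0.207 for Gtf2ird1 and Gtf2ird2. From deviations from the group means, these were 0.0457, 0.328 and 0.406. Both values of Gtf2i thus changed sign, and that with Gtf2ird1 came near 0.

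Genes beside the family were examined next, to see how local the differences were. Of 11 listed symbols in the neighbouring region, some of them older names, 7 were in the table: Castor2, Rcc1l, Clip2, Rfc2, Eif4h, Limk1 and Eln. In gtf2i/gtf2i against wt 0 of 7 were called by edgeR, with 1 (Clip2) at an unadjusted p under 0.05, a level reached by 14.4% of all genes. Their median log2 fold change was -0.06, against 0.0016 for all genes, and ranged from -0.30 to 0.05. Clip2, a microtubule-linking protein gene and the next coding gene after Gtf2ird1, was at 257 CPM in gtf2i/gtf2i and 316 CPM in wt (log2 -0.30, SE 0.0806, edgeR adjusted p 0.0838). It fell against gtf2i, from 331 CPM, by 0.37 on the log2 scale (edgeR adjusted p 0.0266), the 1 neighbour of 7 called there, beside 3.12% of all genes. In ird1/ird1 against wt 0 of 7 were called by edgeR, with 2 (Eln and Clip2) at an unadjusted p under 0.05, a level reached by 16.1% of all genes. All 7 values were below 0, from -0.63 to -0.06, with a median of -0.21 against -0.0037 for all genes. Eln, which encodes elastin, was at 13.0 CPM in ird1/ird1 and 20.6 CPM in wt (edgeR adjusted p 0.296).

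**Figure D5:**
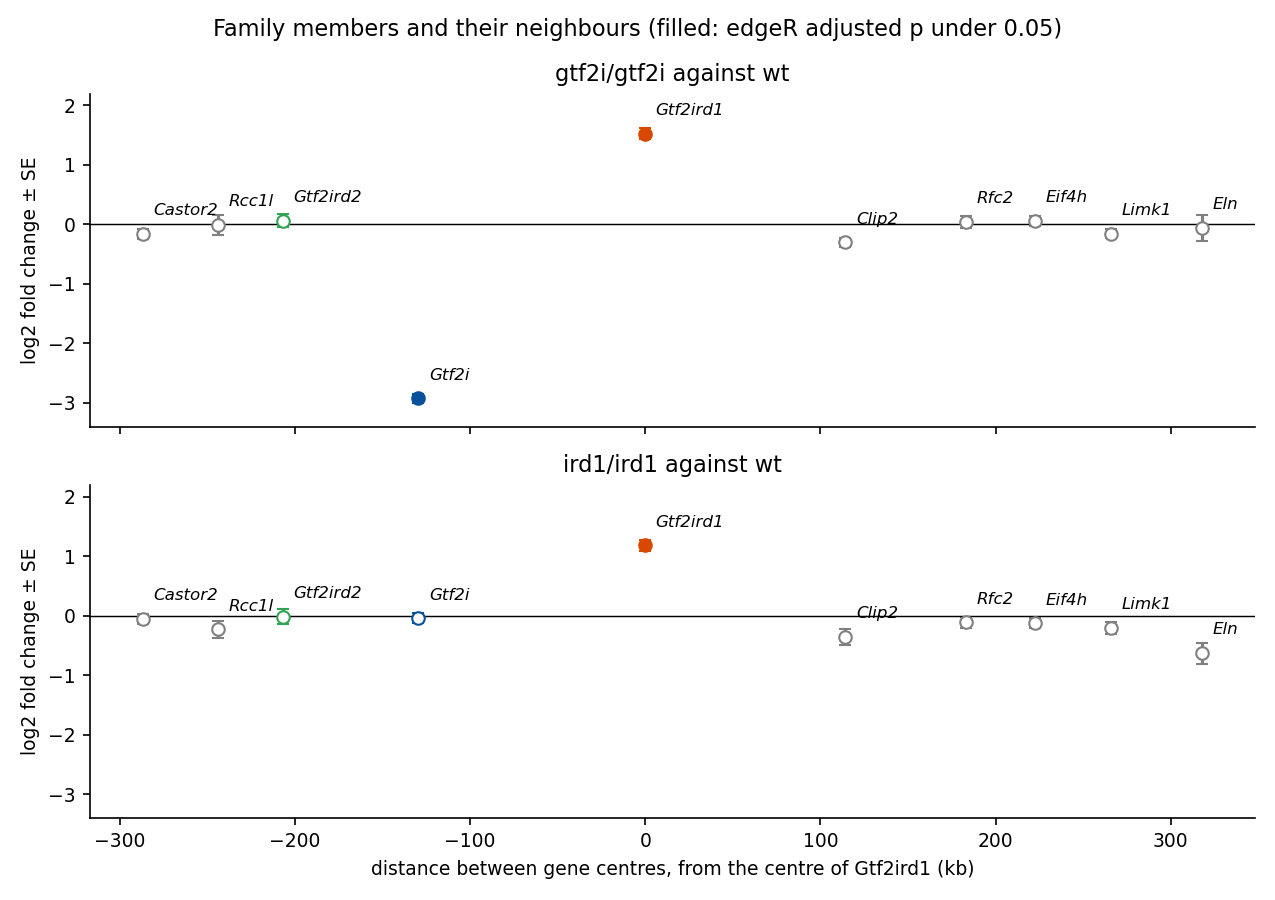
Log2 fold change (homozygote against wt) of the family members and the neighbouring genes in the count table, plotted by the distance of their centres from that of Gtf2ird1 (kb), for each cross; error bars are SE and filled points have an edgeR adjusted p under 0.05. The neighbours lie between -0.63 and 0.05, with Gtf2ird1 above them in both crosses and Gtf2i below them in the gtf2i cross only; in ird1/ird1 it is at -0.05.

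Proteins reported to act with TFII-I were taken as a list of 32 genes, 31 of them in the table. They include histone deacetylases, the KDM1A and RCOR corepressors and the E-box factors USF1 and USF2. In gtf2i/gtf2i against wt 0 were called by edgeR, with 1 higher and 1 lower at an unadjusted p under 0.05, a level reached by 14.4% of all genes. These were Brca1 (33.8 to 43.3 CPM, log2 0.35, edgeR adjusted p 0.165) and Zmym3 (151 to 123 CPM, log2 -0.30, edgeR adjusted p 0.0919). Zmym3 was the 1 partner gene called against gtf2i, where it fell by 0.32 on the log2 scale (edgeR adjusted p 0.0498) and 3.12% of all genes were called. In ird1/ird1 against wt 0 were called by edgeR, with 5 higher and 3 lower at an unadjusted p under 0.05, a level reached by 16.1% of all genes. Rcor2 (381 to 294 CPM) and Src (343 to 286 CPM) had the smallest p there, each with an edgeR adjusted p of 0.296. The median of the 31 genes was -0.03 for the gtf2i/gtf2i effect and 0.11 for the ird1/ird1 effect.

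Reported targets of the family were taken as 15 genes, of which 11 were in the table. In gtf2i/gtf2i 1 was called, Ccnd1, which encodes the cell-cycle protein cyclin D1. It rose from 229 CPM in wt to 337 CPM (log2 0.55, SE 0.112, edgeR adjusted p 0.0353), where 0.41% of genes were called higher. Against gtf2i it rose by 0.73 (edgeR adjusted p 0.00427), and in ird1/ird1 its log2 difference from wt was -0.06 (edgeR adjusted p 0.765). The call against wt was lost in 5 of 6 fits that left out 1 library, with adjusted p up to 0.175, and was kept without gtf2i/gtf2i replicate 3. Radial glia transcripts (8 genes), in which Ccnd1 is high, summed to 2364 to 2728 CPM in gtf2i/gtf2i and 1935 to 2214 CPM in wt, and 0 of those 8 were called against wt by edgeR. At an unadjusted p under 0.05, 3 of them were higher and 1, Slc1a3, was lower (log2 -0.34), beside 14.4% of all genes. The median log2 value of the 8 was 0.07. Vim and Nes, both among the 3 higher, were the most abundant of the 8 and so weigh most in the sum. Against gtf2i, where Ccnd1 was also called, 3 of the 8 were called higher, beside 3.12% of all genes called: Nes (0.36), Vim (0.40) and Hes5 (0.57). Slc1a3 was lower there (-0.37, edgeR adjusted p 0.113) and was not called. Whether the number of radial glia contributes was not tested, and a bulk sample cannot tell more cells from more RNA per cell. In ird1/ird1 against wt 0 of the 11 targets were called by edgeR, with 3 higher (Hsp90b1, Sec23a and Nsd1) at an unadjusted p under 0.05, beside 16.1% of all genes. The median of all 11 was 0.08 for the gtf2i/gtf2i effect and 0.06 for the ird1/ird1 effect.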

How the data were processed

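The authors deposited 1 table of read counts per gene; per the submitters' processing notes, Trimmomatic, STAR and HTSeq were used with mm10. Strand setting, annotation and gene filter are not given in the sources used here. The smallest value in any library was 2.90 CPM or more of the unscaled total, so genes with few reads are not in the table. The counts were used as deposited, with no further gene removed. edgeR 4.0.16 (R 4.3.3) was fitted with TMM scaling and the quasi-likelihood test to the 9 libraries of each cross, and to all 18 for differences between crosses. DESeq2 1.42.0 was an alternative. Transcript lengths are the table's own, used for levels per length. Means and SDs are over libraries, with 95% intervals from the model. The members, gene lists, motifs and markers were chosen with earlier results of these data known. Named genes were the 3 members, the 5 most and 3 least similar genes to each by Pearson's r, and listed genes called in either homozygote contrast (otherwise the 2 with the smallest unadjusted p). 1 gene that this rule names is not reported here. Promoters are from RefSeq (GRCm38.p6), 3 of 3 members matched by symbol. Each title number of the gtf2i cross covers 1 library of each genotype; same-numbered homozygote and wt libraries deviated together (r 0.377, 0.103 and 0.520), so the number was also fitted as a replicate block. The test was checked on simulated data. Depth was 3239117 to 7371483 counts per library. 0 sample columns were left unused, and the 32 chromatin samples were not analysed here.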

Additional observations from a re-analysis of the deposited data

Results flagged for a closer look

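The effect of the genotype on Gtf2i differed between the crosses by the test of the difference itself. The homozygote effects differed by -2.88 on the log2 scale and the heterozygote effects by -0.72 (gtf2i cross minus ird1 cross, edgeR adjusted p 3.89e-14 and 0.00291). All 6 mutant libraries of the gtf2i cross were below all 9 of the ird1 cross. The share of all genes separated in this way was not counted, and even the wt groups of the crosses did not overlap for 32% of genes. Groups of 3 libraries are too small for the test of an outlying library.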

How the results depend on the processing

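Every called member result kept its direction and its call under RLE scaling, DESeq2, all 18 libraries in the fit, the 2 groups alone, no filter and each library left out in turn, where these were run. Gtf2i ranged from -2.95 to -2.89 in gtf2i/gtf2i against wt and from -0.79 to -0.73 in gtf2i. Gtf2ird1 ranged from 1.46 to 1.59 in gtf2i/gtf2i and from 1.14 to 1.29 in ird1/ird1. The replicate block (title number) changed no call: it gave 1.52 for Gtf2ird1 in gtf2i/gtf2i, 1.18 in ird1/ird1 and -2.93 for Gtf2i. In the ird1 cross 15 same-numbered pairs had a median r of 0.0193.

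Calls of Gtf2ird1 were gained in 3 contrasts. In gtf2i against wt the values were 0.55 with 18 libraries, 0.56 with DESeq2 and 0.55 with the 2 groups alone, while 0 of 6 fits without 1 library called it (edgeR adjusted p 0.214 or more). In ird1 against wt they were 0.61 with 18 libraries, 0.61 with DESeq2 and 0.73 without title number 11902. Leaving out 1 library gave 0.56 to 0.72 there, and 1 of 6 such fits called it (edgeR adjusted p up to 0.978). In ird1/ird1 against ird1 they were 0.58, 0.57 and 0.57 (18 libraries, DESeq2, 2 groups), and 0 of 6 fits without 1 library called it (edgeR adjusted p 0.66 or more). Ccnd1 lost its call with the 2 groups alone (0.56, edgeR adjusted p 0.0897), and leaving out 1 library gave 0.47 to 0.67. Against a linear midpoint the heterozygote log2 values became 0.059 for Gtf2i and -0.41 for Gtf2ird1 in the gtf2i cross, and -0.11 for Gtf2ird1 in the ird1 cross. With unscaled totals Gtf2i and Gtf2ird1 in ird1 were at 604 and 151 CPM.

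Among the fold changes and the midpoint values on the log2 scale, signs turned only near 0. On the linear scale the Gtf2ird1 midpoint value of the ird1 cross turned from 0.02 to -0.11. That is -11.5 CPM (SE 4.24), with all 3 heterozygotes below the midpoint. Gtf2i in ird1/ird1 against ird1 became 0.0087 (18 libraries), 0.0020 (2 groups) and 0.024 (without 11902), and -0.019 to 0.014 without 1 library. Without 11902, Gtf2i in ird1/ird1 against wt became 0.0098, and Gtf2ird2 became 0.012 against ird1 and 0.035 against wt. Leaving out 1 library gave -0.060 to 0.017 (Gtf2i), -0.037 to 0.13 (Gtf2ird1) and -0.038 to 0.069 (Gtf2ird2) between the wt groups, and -0.0085 to 0.075 for the Gtf2ird1 midpoint of the ird1 cross. For Gtf2ird2 it gave -0.053 to 0.023 (gtf2i against wt), -0.028 to 0.15 (ird1 against wt), -0.16 to 0.022 (ird1/ird1 against ird1), -0.058 to 0.038 (ird1/ird1 against wt), -0.031 to 0.013 (per allele, ird1 cross), -0.025 to 0.15 (midpoint, ird1 cross) and -0.16 to 0.023 (difference of heterozygote effects). The similarity of Bdh1 and Acat1 to Gtf2i turned to -0.15 and -0.079 without the gtf2i/gtf2i libraries. The cause of these shifts was not tested. Gtf2ird2 had the lowest counts of the members, and the part of depth was not tested.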

Other observations

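Libraries of the same group also differed among themselves, and the genes that followed each member within groups were looked for in deviations from the 6 group means (18 libraries, r as a description). With Gtf2ird1 the highest were Kdm2b (0.944), Map3k10 (0.939) and Drap1 (0.936), and the lowest was Mmgt1 (-0.942), each farther from 0 than the values of Gtf2ird1 with its named genes over the plain levels (at most 0.773). With Gtf2i the highest was Man2c1 (0.918). Gtf2ird2 was closest to Rabep2 (0.852), and Psmd2 (0.812) and Gm4673 (0.793) recurred from its list over plain levels. Libraries of a group share their genotype label, and the part of depth in these deviations was not tested.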
